A study of Cucumis melo with 12 samples.

Results

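In melon (Cucumis melo) leaves, 46 of the 21691 genes in the deposited table varied widely among libraries of the same variety and time. They were chosen by 2 limits on FPKM, a level scaled to gene length and library size. The mean over the 12 libraries had to be at least 20 and below 1000 FPKM, which 5430 genes met. The pooled within-group standard deviation (SD) of log2(FPKM + 1), the square root of the mean of the 4 group variances, had to be at least 0.8. The members made up 0.847% of the genes in that mean range. Because the replicate spread itself chose them, their SDs, the libraries that carry the spread and the sets in which they co-vary are given as descriptions, without a test.

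Leaf RNA was measured in variety 162, labelled tolerant of chilling, and variety 13-5A, labelled sensitive to it. Each was sampled at 0 h and at 12 h of exposure to 4 °C, with 3 libraries in each of the 4 groups. Samples of 0 h carry the same 4 °C label as those of 12 h, with no earlier temperature, so 0 h is read as the start of exposure. No group was kept unchilled until 12 h, so chilling and elapsed time cannot be told apart. Nothing states that replicate libraries were made from different plants. The spread described here may therefore be technical in part, and a p-value weighs a difference against that spread alone. In RNA from whole leaves, fewer cells of a type and less RNA per cell cannot be told apart.

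Melon comes from warm climates, and its leaves can be injured by cold well above freezing. In Arabidopsis, cold induces CBF/DREB1 transcription factors, which switch on a wider group of cold-regulated genes within hours. The amount of a messenger RNA is set by its synthesis and decay, and a short-lived message follows changes in its synthesis quickly. The identifiers in the table carry no gene names, and 0 of them could be paired with a symbol, so the roles of the genes below, and the leaf identity of the samples from marker genes, were not examined.

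The libraries did not differ much in size. Totals ran from 41299369 to 45355323 recovered reads per library. Over the 15592 genes averaging 1 FPKM or more, the mean correlation of a library with the others of its group was lowest for 162 at 0 h replicates 1 and 2, at 0.961, and for 162 at 12 h replicate 3, at 0.964. It was highest for 13-5A at 0 h replicate 1, at 0.986.

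The members had moderate mean levels, as the limits required. In at least 2 groups, however, 25 of them had a group mean below 20 FPKM. Their mean ran from 20.9 to 137 FPKM with a median of 36.4, and 5 had a mean of at least 100 FPKM. Their pooled SD ran from 0.801 to 1.41 with a median of 0.884, against a median of 0.234 for the 5384 other genes of the same mean range. From the recovered reads, Poisson counting alone would give a median SD of 0.057 in the members and of 0.027 in the other genes of the range. The observed SD was 7.24 to 49.6 times the counting SD in the members, with a median of 16.4, and the median ratio was 8.48 in the other genes. The choice by SD sets the members' ratios in part, so they are a description. The recovered length of the members had a median of 972.5 bases, against 1575 bases in the other genes of the range, a property that the rule did not use.

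**Figure D1:**
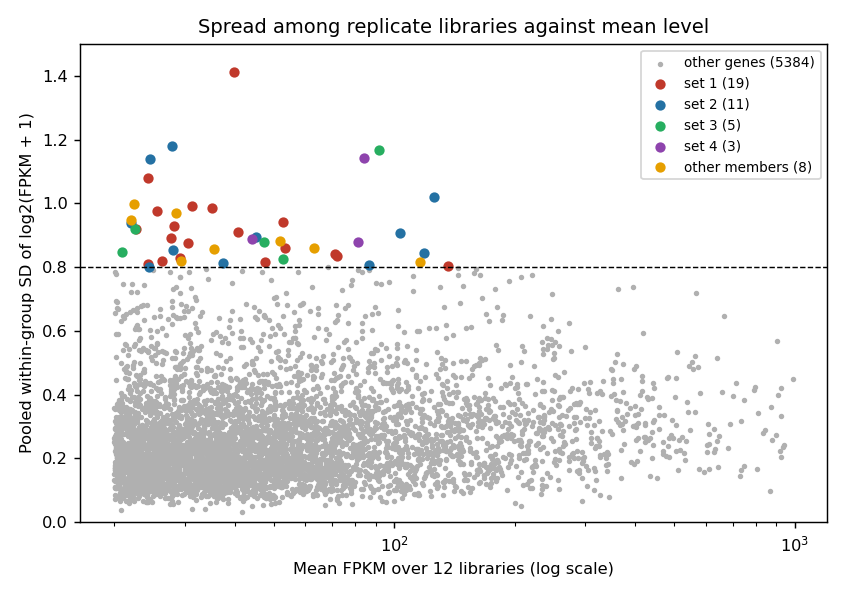
Pooled within-group SD of log2(FPKM + 1) against mean FPKM over 12 libraries (log scale) for 5430 genes with a mean of 20 to 1000 FPKM. Coloured points are the 46 members by co-varying set, grey points the other 5384 genes, and the dashed line the limit of 0.8; the members lie between means of 20.9 and 137 FPKM.

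The limit cut through a continuous range of SDs. The member closest to it, MELO3C012114.2, had a pooled SD of 0.801. Its values at 0 h were 1.42, 7.59 and 1.34 FPKM in 162 and 3.59, 1.15 and 9.69 FPKM in 13-5A (replicates 1, 2 and 3 in this order, as below). At 12 h they were 22.6, 24.2 and 25.5 FPKM in 162 and 79.4, 54.8 and 61.9 FPKM in 13-5A. Its replicates lay apart at 0 h and close together at 12 h. The nearest gene outside, MELO3C010015.2, had an SD of 0.79994, with 4.16, 4.32 and 11.2 FPKM in 162 at 0 h and 33.5, 9.13 and 4.57 FPKM at 12 h. A further 73 genes with a mean of 1 to 20 FPKM and 1 gene above 1000 FPKM had an SD of at least 0.8 and fell outside the mean range.

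The gene with the widest spread was MELO3C024163.2, with a pooled SD of 1.41. In 162 it stood at 97.3, 47.3 and 58.6 FPKM at 0 h and at 14.7, 19.5 and 129 FPKM at 12 h. In 13-5A it stood at 2.26, 15.7 and 3.72 FPKM at 0 h and at 34.6, 50.5 and 3.79 FPKM at 12 h. Single libraries stood apart in 3 of its groups: replicate 3 was high in 162 at 12 h and low in 13-5A at 12 h, and replicate 2 was high in 13-5A at 0 h. The next widest was MELO3C013919.2, with an SD of 1.18. It stood at 1.47, 40.6 and 28.4 FPKM in 162 at 0 h, at 67.0, 60.9 and 114 FPKM in 162 at 12 h, at 0.957, 0.442 and 0.764 FPKM in 13-5A at 0 h and at 6.87, 10.2 and 3.89 FPKM in 13-5A at 12 h. In this gene 88.5% of the summed within-group variance lay in 162 at 0 h, where replicate 1 was 27.6 times below replicate 2.

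The spread of the members was uneven over the groups. Each group SD rests on 3 libraries, so how the variance divides over groups is imprecise for any 1 gene. Most counts of members below were not set beside such counts for the other genes. They are therefore not read as particular to the members. The SD reached 0.8 in 1 group for 16 members, in 2 groups for 19, in 3 for 9 and in all 4 for 2. In 30 members at least 50% of the summed variance lay in a single group, and in 7 at least 75%. The group with the most spread was 162 at 12 h for 18 members, 162 at 0 h for 13, 13-5A at 12 h for 8 and 13-5A at 0 h for 7. The median SD of the members was 0.897 in 162 at 0 h, 0.972 in 162 at 12 h, 0.646 in 13-5A at 0 h and 0.711 in 13-5A at 12 h. The other genes of the range showed a similar contrast between varieties, with medians of 0.258 and 0.22 in 162 and 0.15 and 0.164 in 13-5A. In the same order of groups, an SD of 0.8 was reached by 28, 25, 14 and 22 members and by 119, 92, 44 and 54 other genes. The groups held 32.6%, 29.2%, 16.5% and 21.7% of the members' squared deviations. In the other genes they held 36.0%, 29.3%, 16.7% and 18.0%. Within a group the highest library exceeded the lowest by 10 times or more in 7 members, and the largest such ratio was 44.4, in MELO3C002437.2 in 13-5A at 12 h. That ratio rests on low values, 0.153, 6.78 and 0.962 FPKM.

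Libraries of 162 carried most of the spread. Replicate 3 of 162 at 12 h held 16.7% of the members' summed squared deviations from the group means. Replicates 1 and 2 of 162 at 0 h held 13.5% and 12.8%, and replicate 2 of 13-5A at 12 h held 10.3%. In this order, they were the farthest library from the group mean for 14, 7, 6 and 6 members. At the other end, replicate 1 of 13-5A at 0 h held 1.9% and was the farthest library for 0 members.

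The same libraries stood out over the rest of the genes. In the 5384 other genes the 3 largest shares were 15.7% for replicate 2 and 14.9% for replicate 1 of 162 at 0 h, and 15.6% for replicate 3 of 162 at 12 h. The members differed from them most at replicate 2 of 13-5A at 12 h, with 10.3% against 6.4%. Deviations of the other genes went both ways in every library, with medians between -0.02 and 0.03. The members moved more to 1 side. In replicate 3 of 162 at 12 h 37 of 46 lay above the group mean, with a median deviation of 0.84. In replicate 2 of 162 at 0 h 33 lay above, with a median of 0.72, and in replicate 2 of 13-5A at 12 h 39 lay above, with a median of 0.57. Conversely, 40 lay below the mean in replicate 3 of 13-5A at 12 h and 34 in replicate 1 of 162 at 0 h. Of the other genes, 48.3%, 53.9%, 56.4%, 50.2% and 47.2% lay above the mean in these libraries, in the order given. The members were chosen for large deviations and co-vary in sets, so their counts are not of separate observations. The summed level of the members was 5477 FPKM in replicate 3 of 162 at 12 h, against 2866 and 2828 FPKM in replicates 1 and 2. It was 2595 FPKM in replicate 2 of 162 at 0 h, against 1468 and 2118 FPKM in replicates 1 and 3.

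**Figure D2:**
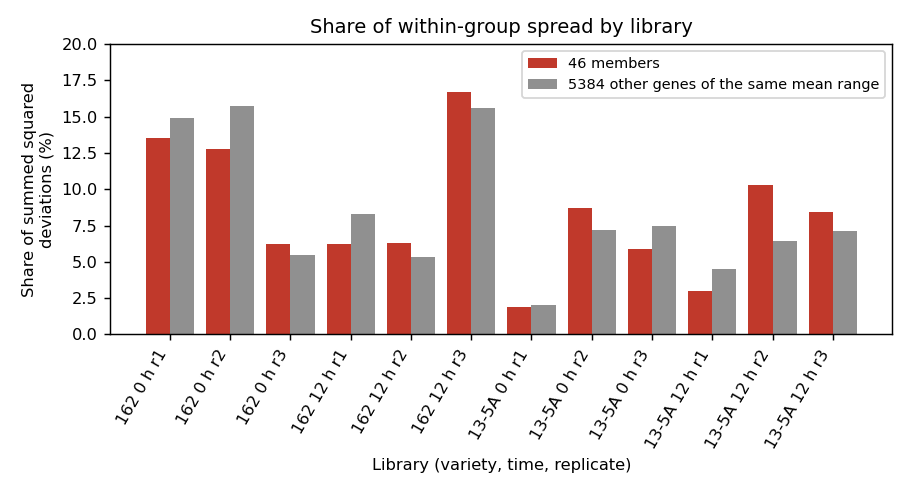
Share of the summed squared deviations from the group means (%, vertical axis) held by each of the 12 libraries, for the 46 members (red) and the 5384 other genes of the same mean range (grey). Replicate 3 of 162 at 12 h (16.7% and 15.6%) and replicates 1 and 2 of 162 at 0 h are high in both.

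The spread was in part shared between groups. Genes were chosen again by the same limits from 3 groups only, and their SD was read in the group left out. In 162 at 0 h the 57 genes so chosen had a median SD of 0.531, against 0.258 for the genes of the range not chosen. In 162 at 12 h 38 genes had 0.517 against 0.22, in 13-5A at 0 h 77 genes had 0.445 against 0.15, and in 13-5A at 12 h 67 genes had 0.514 against 0.165. The median of the chosen genes was thus above that of the rest in each of the 4 groups left out, and below the limit of 0.8 in each. An SD of 0.8 or more in the group left out was reached by 21.1%, 13.2%, 14.3% and 26.9% of the chosen genes in the order above, and by 2.42%, 1.89%, 0.89% and 1.16% of the rest. Of the chosen genes, 29, 23, 40 and 37 in this order were also members. These values therefore describe the genes chosen again, not the 46 members. The libraries left out had no part in the choice, and no p is given because genes are not independent replicates.

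The members fell into a few co-varying sets. Average-linkage clustering of the 46 genes on 1 minus Pearson's r of their deviations over the 12 libraries, of which 8 are free, gave 10 sets at a height of 0.5. Set 1 held 19 members, set 2 held 11, set 3 held 5, set 4 held 3, sets 5 and 6 held 2 each and 4 members stood alone. Sets 1 and 2 together held 30 members and 41.5% and 24.2% of the members' squared deviations. Median pairwise r was 0.64 in set 1 and 0.70 in set 2, with lowest values of 0.12 and 0.32, and the mean deviations of the sets correlated at 0.21 over the 12 libraries. All these points share the same libraries and the choice by spread. The division into sets also depended on single libraries. Without replicate 1 of 162 at 0 h, only 1 set had at least 10 members, and it held 26.

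**Figure D3:**
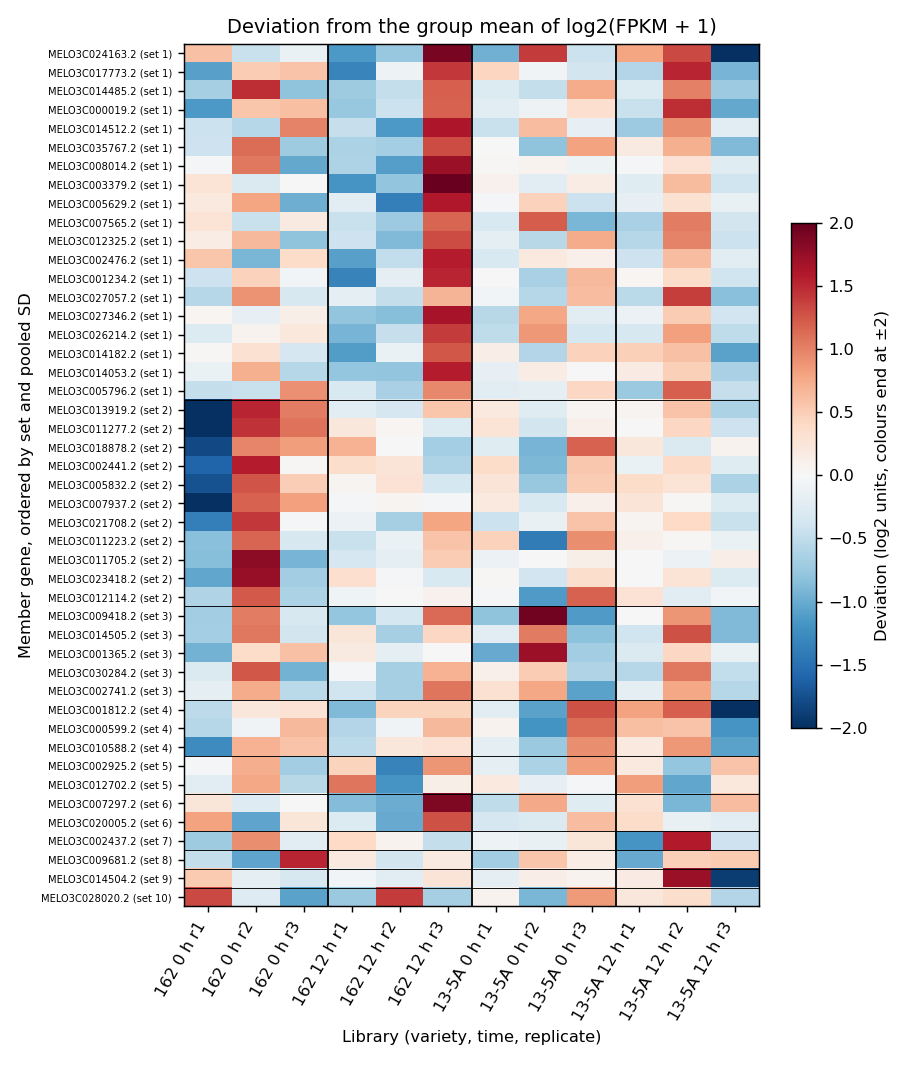
Deviation of each member from its group mean of log2(FPKM + 1) (colour, log2 units) in the 12 libraries (columns; r is the replicate), with genes in rows ordered by set and pooled SD. Set 1 is high in replicate 3 of 162 at 12 h (mean deviation 1.42) and set 2 is low in replicate 1 (-1.54) and high in replicate 2 (1.39) of 162 at 0 h.

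Set 1 was a set of genes that, in 162 at 12 h, all stood highest in replicate 3. All 19 members lay above the group mean there, by 0.67 to 1.97 on the log2 scale, and below it in replicates 1 and 2. Whether replicate 3 was raised or replicates 1 and 2 were lowered cannot be told from 3 libraries. Medians over the members, taken in each library, were 24.8, 28.6 and 129 FPKM in replicates 1, 2 and 3. In 13-5A at 12 h all 19 lay above the mean in replicate 2 and below it in replicate 3, with medians of 26.8, 50.5 and 22.8 FPKM. At 0 h the set had no such common direction: in 162 the mean deviations were -0.19, 0.28 and -0.09, and in 13-5A -0.19, 0.08 and 0.11. In all, 48.3% of its squared deviations lay in 162 at 12 h, 24.2% in 13-5A at 12 h, 16.4% in 162 at 0 h and 11.1% in 13-5A at 0 h.

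The members closest to the mean course of set 1 show this. MELO3C014053.2 (r = 0.925 with the set mean over 12 libraries) stood at 30.3, 55.0 and 21.96 FPKM in 162 at 0 h, at 7.59, 7.55 and 42.7 FPKM in 162 at 12 h, at 16.1, 20.3 and 18.4 FPKM in 13-5A at 0 h and at 25.2, 31.6 and 14.0 FPKM in 13-5A at 12 h. In 162 at 12 h its replicate 3 lay within the range of the 0 h libraries, while replicates 1 and 2 lay below all of them. MELO3C003379.2 (r = 0.902) stood at 11.3, 7.23 and 9.2 FPKM in 162 at 0 h, at 9.62, 13.0 and 93.6 FPKM in 162 at 12 h, at 11.4, 8.97 and 11.9 FPKM in 13-5A at 0 h and at 25.6, 47.8 and 22.8 FPKM in 13-5A at 12 h. Its replicate 3 at 12 h was the highest of the 12 libraries, and 87.2% of its summed variance lay in 162 at 12 h.

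Set 2 was a set of genes spread along 162 at 0 h. All 11 members lay below the group mean in replicate 1, by 0.59 to 2.55, and above it in replicate 2, by 0.97 to 1.79. Medians over the members, taken in each library, were 4.4, 47.8 and 22.3 FPKM in replicates 1, 2 and 3. For each gene the highest library exceeded the lowest by 5.65 to 32.5 times, with a median of 8.42. In 162 at 12 h the replicates were close, with a median ratio of 1.82, and in 13-5A at 12 h with 1.46. In 13-5A at 0 h all 11 lay above the mean in replicate 3 and 10 lay below it in replicate 2. The group 162 at 0 h held 75.4% of the squared deviations of the set.

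MELO3C005832.2 followed the mean course of set 2 most closely (r = 0.947). It stood at 12.8, 110 and 63.8 FPKM in 162 at 0 h, at 143, 168 and 108 FPKM in 162 at 12 h, at 38.6, 18.6 and 46.2 FPKM in 13-5A at 0 h and at 220, 206 and 109 FPKM in 13-5A at 12 h. Replicate 2 of 162 at 0 h was at the level of the 12 h libraries of that variety, and replicate 1 was the lowest of all 12 libraries. MELO3C002441.2 (r = 0.935) stood at 4.45, 47.8 and 15.7 FPKM in 162 at 0 h, at 25.8, 24.2 and 12.7 FPKM in 162 at 12 h, at 38.7, 15.5 and 44.0 FPKM in 13-5A at 0 h and at 10.5, 15.2 and 9.53 FPKM in 13-5A at 12 h. This gene shared the order of the 0 h libraries but did not rise between times in 13-5A, where its 12 h values were all lower than those at 0 h.

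**Figure D4:**
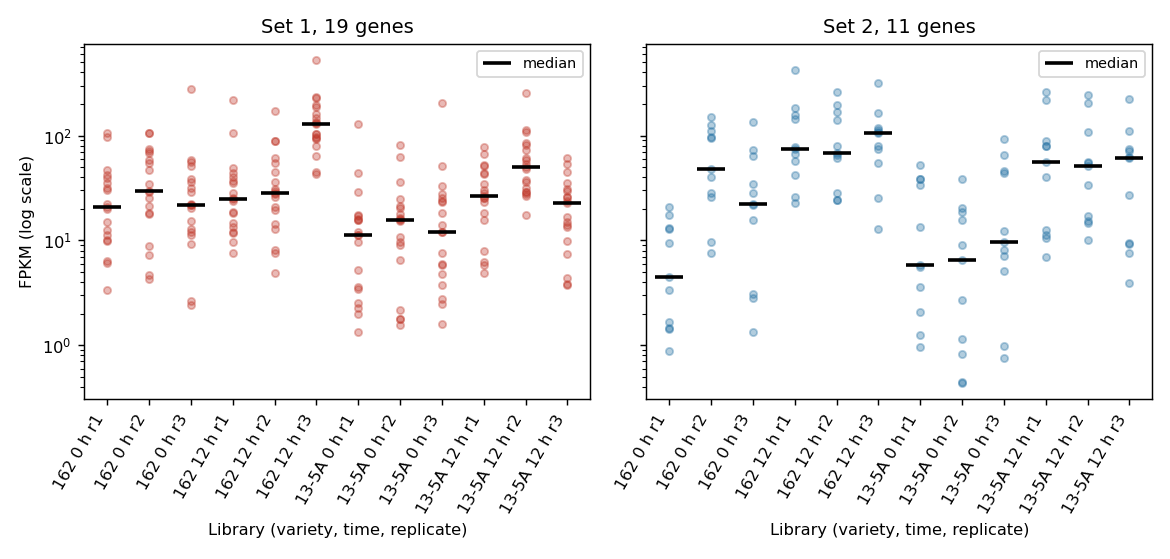
FPKM (log scale) of the 19 members of set 1 (left) and the 11 of set 2 (right) in the 12 libraries; each point is 1 gene and each black bar the median. The median of set 1 is 129 FPKM in replicate 3 of 162 at 12 h against 24.8 and 28.6 in the other replicates, and that of set 2 is 4.4, 47.8 and 22.3 FPKM in 162 at 0 h.

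The smaller sets divided the libraries in other ways. The 5 members of set 3 all lay above the mean in replicate 2 of 162 at 0 h, of 13-5A at 0 h and of 13-5A at 12 h, with mean deviations of 0.88, 1.19 and 0.88. MELO3C014505.2 (r = 0.959 with the set mean) stood at 26.8, 91.5 and 33.5 FPKM in 162 at 0 h, at 16.3, 8.32 and 18.6 FPKM in 162 at 12 h, at 6.71, 17.5 and 4.04 FPKM in 13-5A at 0 h and at 9.22, 31.8 and 6.37 FPKM in 13-5A at 12 h. MELO3C009418.2 (r = 0.952) had 1.01, 12.4 and 0.607 FPKM in 13-5A at 0 h, where replicate 2 was 20.4 times above replicate 3. Replicates with the same number were not shown to be related, so the shared number 2 is treated only as a label.

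The 3 members of set 4 were low in replicate 3 of 13-5A at 12 h (mean deviation -1.41) and in replicate 2 of 13-5A at 0 h (-1.0), and high in replicate 3 of 13-5A at 0 h (1.11). Their lengths were 186, 270 and 1099 bases, the last being that of MELO3C010588.2. MELO3C001812.2 (r = 0.975), the shortest of them, stood at 55.5, 94.6 and 98.6 FPKM in 162 at 0 h, at 54.1, 138 and 138 FPKM in 162 at 12 h, at 31.3, 16.9 and 89.5 FPKM in 13-5A at 0 h and at 119, 155 and 16.2 FPKM in 13-5A at 12 h. MELO3C000599.2 (r = 0.961) had 31.8, 12.7 and 67.0 FPKM in 13-5A at 0 h and 68.8, 67.4 and 19.3 FPKM at 12 h. In both genes the library of 13-5A that was lowest at 12 h lay below the highest library at 0 h.

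Genes outside the members, whose SD lies below 0.8 by the rule, also followed these courses. Of the 5384 other genes of the range, 167 (3.1%) had deviations that correlated at 0.8 or more with the mean of set 1, and their median pooled SD was 0.363. For set 2 there were 485 genes (9.01%) with a median SD of 0.274. In the opposite direction, 137 genes (2.54%) correlated at -0.8 or below with set 1 and 203 (3.77%) with set 2. For sets 3 and 4, 49 and 195 genes correlated at 0.8 or more. These are descriptions over 12 libraries that all genes share.

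A score of the response to 12 h at 4 °C was set beside the sets. It is the mean of log2(FPKM + 1), signed by direction, over genes called in the other variety from that variety's 6 libraries alone, without the members. It used 3373 genes for 162, where it rose by 1.27 between times, and 3068 for 13-5A, where it rose by 1.37. Replicate 2 of 162 at 0 h, in which set 2 was highest, stood 0.15 above its group mean, and replicate 1, in which set 2 was lowest, stood 0.11 below it. Replicate 3 of 162 at 12 h, in which set 1 was highest, stood 0.10 above. In 13-5A at 12 h, replicate 2, in which set 1 was highest, stood at 0.62, between 0.68 in replicate 1 and 0.56 in replicate 3. In 13-5A at 0 h the score deviated by 0.01, -0.06 and 0.05 in replicates 1, 2 and 3. Set 2 deviated there by 0.09, -0.6 and 0.51, and set 4 by -0.11, -1.0 and 1.11, both in the same order of libraries as the score. Set 3 ran in the opposite order, at -0.33, 1.19 and -0.86. Set 1, at -0.19, 0.08 and 0.11, followed neither order. Single libraries deviated from their group mean by at most 0.15, and the changes between times were 1.27 and 1.37. Whether a different place along this response has a part in the spread of the members was not tested.

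The group means of the members, which the SD limit did not use, were compared by limma with Benjamini-Hochberg adjustment over all 15592 genes tested. A gene was called at an adjusted p under 0.05 and a log2 difference of at least 1. Both the spread and the mean limit bear on these counts. The wide spread enters the error of the test, so the median SE of the members was 0.60 for each comparison of times or varieties. On the other side, 35 members had a group mean below 20 FPKM in at least 1 group and reached the mean limit through other groups, which favours genes that differ. No count below is therefore read as particular to the members. The genes named for each comparison of times or varieties were picked as the largest called differences. Their p-values do not allow for that choice, nor for the mean limit.

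Over 12 h at 4 °C in 162, 16 members rose and 3 fell, and 27 did not pass the test. Of all genes tested, 19.8% were called in this comparison (9.24% higher, 10.6% lower), and of the genes in the same mean range 22.1%. The median log2 difference of the members was 0.88, against -0.12 over all genes. MELO3C009418.2, of set 3, stood at 1.08, 5.84 and 1.7 FPKM at 0 h and at 111, 149 and 421 FPKM at 12 h. The groups did not overlap, although the 12 h libraries spanned 3.8 times and the 0 h libraries 5.41 times. Its log2 difference was 5.83 (SE 0.78, adjusted p = 0.000101 by limma, n = 3 per group). This gene reached the mean limit through its 12 h groups, as its means at 0 h were 2.87 FPKM in 162 and 4.67 FPKM in 13-5A. A difference over time was thus favoured by the choice. MELO3C014504.2, which stood alone among the sets, fell from 69.3, 41.5 and 38.2 FPKM to 11.9, 10.6 and 15.1 FPKM. The difference was -1.87 on the log2 scale (SE 0.64, adjusted p = 0.0293 by limma), with no overlap. This call ended without replicate 1 of 162 at 0 h (adjusted p = 0.0979 by limma), without replicate 1 (0.0625) or replicate 2 (0.0785) of 162 at 12 h, and with no filter on low genes (0.0542). Over all alternatives its adjusted p ran from 0.00099 to 0.0979. Most of the spread of this gene, 91.8%, lay in 13-5A at 12 h, where it stood at 10.4, 32.7 and 1.73 FPKM. Set 2 had 8 of its 11 members rising and set 1 had 5 of 19. Without replicate 3 of 162 at 12 h the members called were 12 higher and 6 lower, 14 of them among the 19 above, and the median of the members was 0.43. Set 2 was lowest in replicate 1 of 162 at 0 h, which is part of this comparison. Leaving that library out gave 13 members called, 11 higher and 2 lower, with a median of 0.56. Leaving out replicate 2 of the same group, where set 2 was highest, gave 17 higher and 2 lower, with a median of 1.12.

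In 13-5A, 17 members rose and 2 fell. The background was 21.7% of all genes tested (12.6% higher, 9.06% lower) and 26.5% of the genes in the mean range, and the median log2 difference was 1.20 against 0.07 over all genes. MELO3C011223.2, of set 2, stood at 5.62, 0.826 and 8.11 FPKM at 0 h and at 261, 246 and 221 FPKM at 12 h. Its replicates spanned 9.82 times at 0 h and 1.18 times at 12 h, and the groups did not overlap. The log2 difference was 5.66 (SE 0.57, adjusted p = 1.01e-05 by limma). Means of this gene at 0 h were 4.73 FPKM in 162 and 4.85 FPKM in 13-5A, so it too reached the mean limit through its 12 h groups. MELO3C020005.2, of set 6, fell from 175, 181 and 339 FPKM to 13.6, 9.24 and 8.67 FPKM, by 4.29 on the log2 scale (SE 0.55, adjusted p = 5.87e-05 by limma). In 162 the same gene went from 269, 73.2 and 182 FPKM to 30.2, 17.7 and 90.2 FPKM, and there the groups overlapped because replicate 3 at 12 h lay above replicate 2 at 0 h. In set 2, 7 of 11 members rose, and in set 1, 6 of 19 rose and 1 fell.

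Of the members, 14 rose in both varieties and 1 fell in both, where 7.13% of all genes tested rose in both and 5.86% fell in both. In 162 without a call in 13-5A 4 members were called (6.83% of all genes), and 4 the other way round (8.67%). The mean limit favours joint rises, since a gene low at 0 h can reach it through its 12 h groups in both varieties, so nothing is read from these counts. A call in 1 variety alone does not make these genes differ between varieties. The interaction, the 162 change minus the 13-5A change, was called for 0 of 46 members by limma, where 3.41% of all genes (1.04% higher, 2.37% lower) and 3.96% of those in the mean range were called. At an unadjusted p under 0.05 there were 3 members, and limma voom on the recovered reads also called 0. The 3 members, named after their values were seen, were MELO3C020005.2 (interaction 2.26, SE 0.78, adjusted p = 0.113), MELO3C014505.2 (-2.20, SE 0.88, adjusted p = 0.164) and MELO3C030284.2 (-1.96, SE 0.81, adjusted p = 0.178), all by limma. The median SE of an interaction in the members was 0.84, close to the minimum difference of 1. Without replicate 3 of 162 at 12 h 5 members were called, all with a negative interaction. Without replicate 1 of 162 at 0 h 2 members were called with a negative interaction, without replicate 2 of that group 2 with a positive one, and without replicate 3 of 13-5A at 12 h 1 member.

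**Figure D5:**
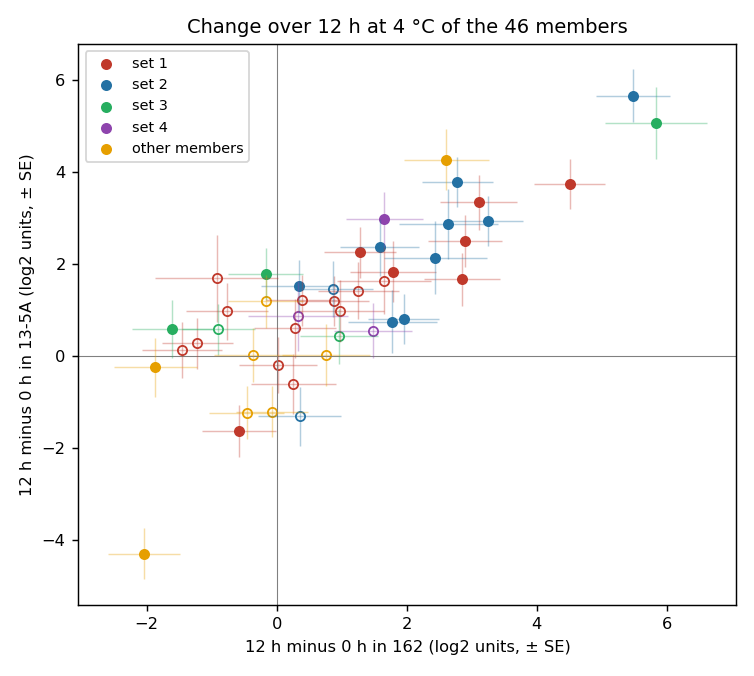
Log2 difference between 12 h and 0 h in 162 (horizontal) and in 13-5A (vertical) for the 46 members, coloured by set, with bars of ± SE from limma; filled points were called in at least 1 variety and open points in none. The 14 members called as rising in both lie at the upper right. MELO3C020005.2 alone was called as falling in both, although other members also have negative differences in both.

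Between varieties at 0 h, 18 members were higher in 162 and 1 lower. The background was 14.8% of all genes (11.7% higher, 3.08% lower) and 18.4% of those in the mean range, and the median log2 difference was 0.87 against 0.24 over all genes. Median-ratio scaling moved the median of all genes to -0.03 and that of the members to 0.57, with 14 members higher and 2 lower. MELO3C002437.2, which stood alone among the sets, stood at 74.2, 233 and 105 FPKM in 162 and at 0.057, 0.031 and 0.346 FPKM in 13-5A. The difference was 6.76 on the log2 scale (SE 0.58, adjusted p = 6.95e-06 by limma). The 13-5A values rest on few reads, with 1 read in the lowest library, so this difference depends on the pseudocount and was 9.19 with a pseudocount of 0.1 and 10.16 on voom values. Whether reads of 13-5A failed to map to this gene was not tested. It reached the mean limit through 162, with means of 137 FPKM at 0 h and 112 FPKM at 12 h. In 13-5A the means were 0.14 and 2.63 FPKM. A variety difference in this gene was thus favoured by the choice at both times. MELO3C001365.2, of set 3, was lower in 162, at 4.26, 12.1 and 14.3 FPKM against 27.1, 185 and 34.0 FPKM (-2.48, SE 0.59, adjusted p = 0.00583 by limma). The groups did not overlap, and replicate 2 of 13-5A stood far above the other replicates. Without that replicate the difference was -1.62 (SE 0.38, adjusted p = 0.00763 by limma), and over the libraries left out it ran from -2.99 to -1.62.

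At 12 h, 10 members were higher in 162 and 1 lower, with a background of 7.9% of all genes (4.97% higher, 2.92% lower) and 7.5% of those in the mean range. The median log2 difference was 0.69 against 0.07 over all genes. MELO3C002437.2 stood at 143, 114 and 77.8 FPKM in 162 and at 0.153, 6.78 and 0.962 FPKM in 13-5A (5.40, SE 0.58, adjusted p = 5.69e-05 by limma). MELO3C001365.2 stood at 21.5, 16.6 and 18.7 FPKM in 162 and at 62.0, 102 and 69.1 FPKM in 13-5A (-1.95, SE 0.59, adjusted p = 0.0344 by limma), and its adjusted p ran from 0.00107 to 0.0953 over the alternatives. This call ended when any of the 6 libraries at 12 h was left out, with no filter on low genes and on voom values. Of the members, 9 were higher in 162 at both times and 1 was lower at both. The direction at 12 h rested on replicate 3 of 162: without it 6 members were higher and 5 lower, 6 of them among the 11 above, and the median was 0.15. The count was 7 in the absence of replicate 1 of 162 at 12 h, and 6 when either replicate 1 or replicate 3 of 13-5A at 12 h was left out. In all, 13 of the 46 members were called in no comparison.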

How the data were processed

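The authors deposited FPKM for 21691 genes in 12 columns, 1 per sample, which were assigned by the sample descriptions in the labels; 0 further columns were present. Per the labels' protocols, RNA was extracted with TRIzol and sequenced as paired-end reads on an Illumina NovaSeq instrument. The aligner, counter, genome build and annotation were not given in the sources used here. The members, sets and tests were chosen with earlier results of these data known. Gene lists and cell type markers were not matched, since 0 identifiers matched a name.

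Whole reads, gene lengths and library totals were solved from the FPKM. A length was accepted only where the values of a gene came out whole within 0.001 reads. Such a length was found for 15591 of the 15592 tested genes. The recovered reads may be single reads or pairs, and counting SDs cover counting error only. Libraries of a group differed by 37.9 to 264 in chi-square per gene, far beyond sampling noise, so all were kept as separate samples.

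Values were tested as log2(FPKM + 1), which understates changes of low genes, with limma 3.58.1 in R 4.3.3, an intensity trend, 4 groups and 8 residual degrees of freedom, on genes averaging 1 FPKM or more. All 46 members passed this filter. Both the recovery of reads and the limma fit were tested on simulated data. The limma simulation gave every gene the same spread setting, not the wide spread of the members. It therefore does not show how the test behaves for them. Genes were named by rule: the 2 widest, the nearest on each side of the limit, the 2 closest to the mean of each of the 4 largest sets, and the called member with the largest rise and fall without overlap per comparison. Alternatives were another pseudocount, filters, scalings, limma without trend, with a robust prior or on voom values of the recovered reads, no fold minimum, the compared groups alone, a replicate block, each library left out, and other limits and tree heights. Other steps used Python 3.11.15, numpy 2.4.6, pandas 2.3.3, scipy 1.17.1 and matplotlib 3.10.9.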

Additional observations from a re-analysis of the deposited data

How the results depend on the processing

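The number of members depended on the limits and libraries. It was 46 by the rule, 70 with a pseudocount of 0.1, 102 and 20 with SD limits of 0.7 and 0.9, and 71 and 16 with mean limits of 10 and 50 FPKM. Leaving out each library gave 30 to 85 members, with 30 without replicate 3 of 162 at 12 h, 82 without replicate 3 of 162 at 0 h, and 85 and 71 without replicate 1 of 13-5A at 0 h and at 12 h. Of the 46 members, 24 remained without replicate 3 of 162 at 12 h. Replicate numbers were not shown to pair the samples (r of deviations -0.31 to 0.31 in 18 pairs with the same number, 2 over 0.1). Pairs with different numbers were not set beside them, so these values do not decide the question. With the replicate block removed before the SD there were 76 members, 39 of them among the 46, and the replicate block gave 17, 19, 0, 19 and 10 members called over time in 162, over time in 13-5A, for the interaction, and between varieties at 0 h and 12 h. The count at 12 h was 6 without a filter and ran from 6 to 14 with each library left out. Over those libraries the other counts ran from 13 to 19, 14 to 22, 0 to 5 and 14 to 21. The 30 members in sets of at least 10 became 0 at a tree height of 0.3, where the largest set held 6. They ran from 21 to 36 with each library left out, an alternative added after seeing the data. The number of such sets also changed. Without replicate 1 of 162 at 0 h there was 1, with 26 members. There were 3 without replicate 3 of 162 at 0 h, replicate 1 or 2 of 162 at 12 h, or replicate 1 of 13-5A at 12 h. The cause of these shifts was not tested, except that other limits change the count by construction. Among the 341 values under alternatives, no named gene changed the sign of its difference; its call ended in 12 values, all for MELO3C014504.2 or MELO3C001365.2. Genes with few reads are limited by depth: the reads in each member's lowest library had a median of 153.5.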
